A study of Rattus norvegicus with 4 samples.

Results

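The Slit, Robo and netrin genes encode secreted guidance cues and the receptors that read them. They were followed here through 17 probe sets for 10 genes: the Slit ligands Slit1, Slit2 and Slit3, the Slit receptors Robo1, Robo2 and Robo3, netrin 1 (Ntn1), and its receptors Dcc, Unc5a and Unc5b. Every probe set of the array table whose single gene symbol was one of these 10 was taken, 17 of 31042 non-control probe sets, and the 10 genes are among 14217 that the array names in this way. No probe set with several symbols named any of them.

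The samples were telencephalon, the front part of the embryonic forebrain, from homozygous Pax6 mutant rats (rSey2/rSey2) and from wild-type rats at E11.5 (embryonic day counted from the vaginal plug), both on a Sprague-Dawley background. Each genotype had 2 Affymetrix arrays, which the labels call biological replicates. The design text speaks of 13 telencephalons and of a repeat in each genotype, so an array stands for pooled embryos, though the text can be read as 1 pool or several per genotype. Litters are not named, so the tests see only how far these arrays differ, which may in part be technical. The mutation is carried by every cell, so the comparison does not separate effects within the telencephalon from effects of neighbouring tissue. The mutants and the wild types underwent no treatment that the labels name.

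In nervous system development, Slit proteins are known chiefly as repellents that act through Robo receptors on growing axons and migrating neurons. Netrin 1 attracts axons through Dcc and repels them where Unc5 receptors take part. In the embryonic forebrain these cues come largely from the ventral and midline tissue, and they help to set where the first axon tracts run. Robo3 stands apart from its relatives: in mice it is needed for commissural axons to cross the midline, and the mammalian protein binds Slits poorly.

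Values are GCRMA expression values on the log2 scale, where a step of 1 is a 2-fold change in signal, and all differences are mutant minus wild type. They ran from 2.07 to 16.13 over all probe sets and arrays. Probe sets with a mean under 3.21, the 40th percentile, were treated as dim and left untested. This left 18625 tested probe sets, with array medians of 8.22 and 8.35 in the mutants and 8.24 and 8.33 in the wild types. Of the 17 guidance probe sets, 13 were tested, covering 9 genes, and 4 were dim, among them the 1 probe set of Dcc. Pax6 itself was at 11.71 ± 0.11 in the mutants and 11.80 ± 0.07 in the wild types (SD, n = 2 each), and thus cannot serve as a check of the labels. Arrays give no read depth, and their number limits the precision.

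No guidance gene passed the test over all probe sets. limma called 0 of the 13 tested probe sets at an adjusted p of 0.05, where 0% of all 18625 tested probe sets were called. Robo3 had the lowest adjusted p of the 13, 0.967, and the other 12 stood at 1. At an unadjusted p under 0.05 there were 2 of 13, Robo3 and the brightest Ntn1 probe set, both higher in the mutants, beside 3.65% of all tested probe sets (1.74% in the higher direction). Of the 13, 11 had the higher mean in the mutants and 2 the lower, where 48.8% of all tested probe sets were higher. The median difference of the 13 was 0.21, against 0 over all tested probe sets. Probe sets of a gene share its RNA, so these 13 are not independent. Robo3 passed the dim level only through its mutant arrays and Unc5a only through its wild-type arrays, so the counts describe the tested probe sets and do not stand for all 17. The plot of values by array shows all 17.

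**Figure D1:**
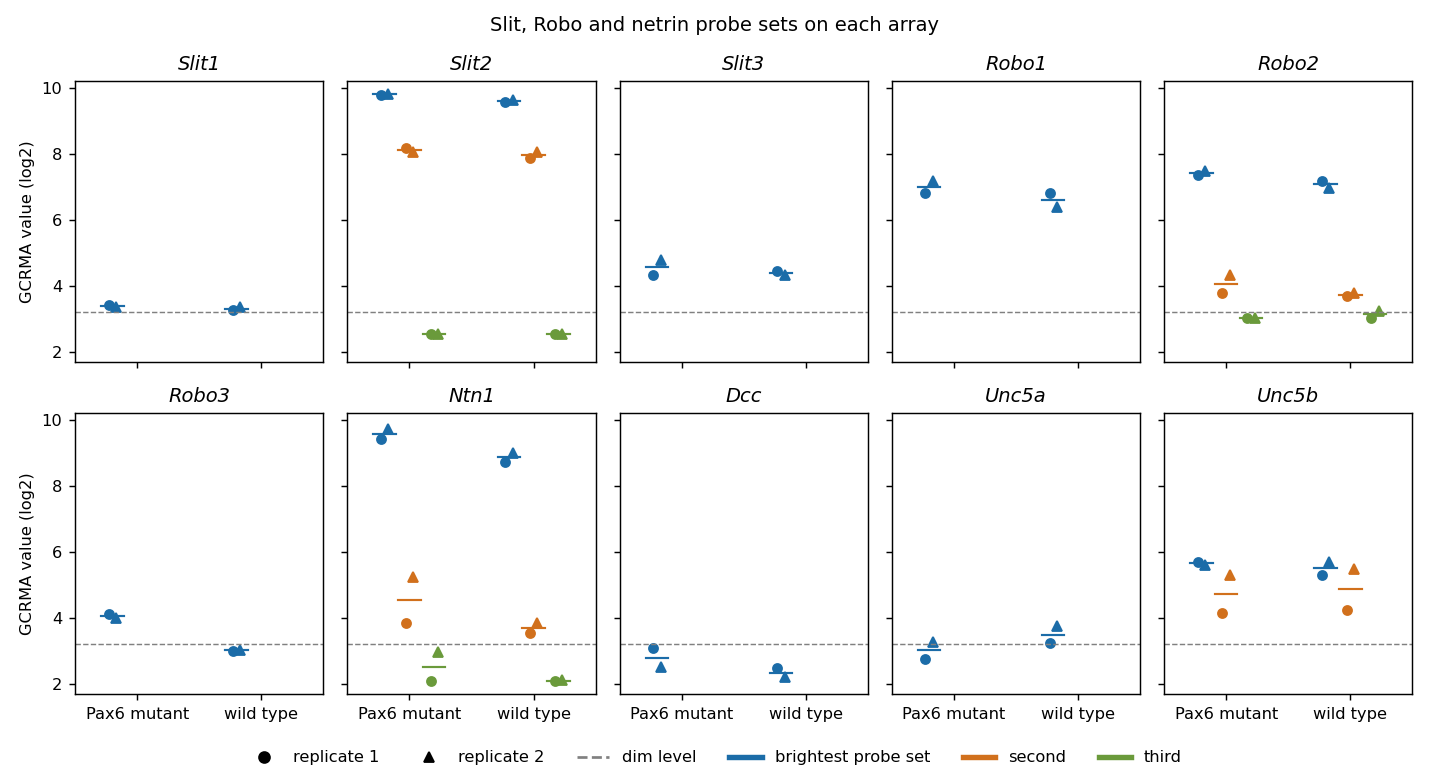
GCRMA value (log2) of each of the 17 probe sets on each array, a panel per gene, with Pax6 mutant arrays left of wild-type arrays. Circles are replicate 1, triangles replicate 2, short bars the genotype mean, colours the probe sets of a gene from brightest to dimmest, and the dashed line the dim level of 3.21. Robo3 and the brightest Ntn1 probe set show a gap between the genotypes, and Dcc lies under the dim level on all 4 arrays.

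Among the Slit ligands the differences were small. The brightest Slit2 probe set had 9.81 and 9.84 in the mutant arrays, against 9.59 and 9.64 in the wild-type arrays. Both mutant arrays were above both wild-type arrays, by a gap of 0.17. The difference was 0.21 (SE 0.07, 95% interval -0.0042 to 0.43), a 1.16-fold higher level (limma, unadjusted p = 0.0526, adjusted p = 1). In bulk tissue such as this, more cells of a type and more RNA per cell cannot be told apart. The second Slit2 probe set had 8.20 and 8.08 in the mutants, against 7.88 and 8.08 in the wild types. Its groups met at 8.08, and its difference was 0.16 (SE 0.11). The third Slit2 probe set was dim, between 2.54 and 2.55 on all 4 arrays.

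Slit1, with 1 probe set, lay just above the dim level at 3.44 and 3.36 in the mutants, against 3.28 and 3.36 in the wild types. Its difference of 0.08 (SE 0.08) had a 95% interval of -0.16 to 0.32. Slit3 had 4.34 and 4.80 in the mutants, against 4.47 and 4.34 in the wild types. The Slit3 groups overlapped, and its difference of 0.17 (SE 0.20) became -0.06 without mutant replicate 2.

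The Slit receptors Robo1 and Robo2 carry the repellent signal of Slits into the cell. Robo1 had 6.81 and 7.21 in the mutants, against 6.81 and 6.40 in the wild types. The groups touched at 6.81, and the difference of 0.40 (SE 0.23, 95% interval -0.31 to 1.11) did not pass the test (limma, adjusted p = 1). Leaving out wild-type replicate 2 gave 0.20, and leaving out wild-type replicate 1 gave 0.61. The brightest Robo2 probe set had 7.38 and 7.50 in the mutants, against 7.21 and 6.98 in the wild types. Here the groups did not overlap, and the difference was 0.35 (SE 0.12, 95% interval -0.02 to 0.72; limma, unadjusted p = 0.0582, adjusted p = 1). It was 0.23 without wild-type replicate 2.

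The second Robo2 probe set had 3.78 and 4.35 in the mutants, against 3.70 and 3.78 in the wild types, and these groups overlapped. Mutant replicate 2 was the only array above 4 here, and without it the difference of 0.32 (SE 0.24) was 0.04. The third Robo2 probe set was dim, at 3.04 in both mutants against 3.04 and 3.24 in the wild types.

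Robo3 showed the widest gap between the genotypes of the 13 tested probe sets. Its 1 probe set (1380370_at) had 4.12 and 3.98 in the mutant arrays, against 2.997 and 3.03 in the wild-type arrays. Both mutant arrays lay above the dim level and both wild-type arrays under it, with a gap of 0.95 between the groups. The mean was 4.05 ± 0.10 in the mutants and 3.01 ± 0.02 in the wild types (SD, n = 2 each), and the fit put the difference at 1.04 (SE 0.09, 95% interval 0.77 to 1.30). Since the wild-type values are dim, this size is uncertain and no exact fold is given. The mutant mean lay 0.84 above the dim level itself, which is a percentile and not a limit of detection. Another gene, Nova2, stood at 4.06 on all 4 arrays, so a value of this height does not by itself show expression. With a pseudocount of 16 on the linear scale the Robo3 difference was 0.44.

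The unadjusted p of Robo3 was 0.000832 and its adjusted p 0.967 (limma). This p, too, sets mutant values against dim wild-type values, for a probe set that passed the filter only through the group where it was high. With any 1 array left out the difference stayed between 0.97 and 1.10.

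The sequence before the Robo3 start is shown because Robo3 had the widest gap and Pax6 is a DNA-binding factor. Pax6 binds DNA with a paired domain, whose known consensus holds the letters TTCACGC, and with a homeodomain, which like others of its class favours sites around TAAT such as TAATTA. RefSeq (GRCr8) gives these 250 bases before the annotated Robo3 start, on the minus strand of chr8:45340223-45340472. Capitals mark TAATTA and GCGTGA, the reverse complement of TCACGC.

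Robo3: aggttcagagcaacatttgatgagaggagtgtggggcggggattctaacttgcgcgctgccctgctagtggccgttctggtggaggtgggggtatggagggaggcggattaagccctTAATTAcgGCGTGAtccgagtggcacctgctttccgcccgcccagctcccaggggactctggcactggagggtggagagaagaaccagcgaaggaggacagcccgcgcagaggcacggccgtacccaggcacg

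TAATTA lay 133 to 128 bases before the start and GCGTGA 125 to 120 bases before it, without overlap. The full TTCACGC was not among these letters on either strand. Of 33469 windows of the same length before annotated rat gene starts, searched on both strands, 4.86% held TAATTA, 5.53% held TCACGC and 0.134% (45) held both, while 1.06% held TTCACGC. The shorter motif TCACGC is part of TTCACGC and was searched after the Robo3 window had been read. Its share, and the share with both motifs, therefore do not measure how unusual the Robo3 window is. These matches describe letters and not binding, which was not measured. The windows of Slit3, Robo1 (2 annotated starts), Robo2, Dcc, Unc5a and Unc5b held none of the 3 motifs. Slit1, Slit2 and Ntn1 had no match in the promoter table.

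Netrin 1 had the next widest gap between the genotypes among the tested probe sets. Its brightest probe set (1376128_at) had 9.42 and 9.73 in the mutant arrays, against 8.73 and 9.002 in the wild-type arrays. Both mutant arrays were above both wild-type arrays, with a gap of 0.41. The mean was 9.57 ± 0.22 in the mutants and 8.87 ± 0.19 in the wild types (SD, n = 2 each). The difference was 0.70 (SE 0.17, 95% interval 0.17 to 1.23), a 1.63-fold higher level (limma, unadjusted p = 0.0233, adjusted p = 1), and 131 tested probe sets had a larger increase. With 1 array left out it ran from 0.55 to 0.86. With the pseudocount of 16 the difference of this Ntn1 probe set was 0.69, larger than the 0.44 of Robo3. In both genotypes replicate 2 was the higher array, by 0.31 in the mutants and 0.27 in the wild types.

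The dimmer Ntn1 probe sets rested on 1 array. The second had 3.85 and 5.22 in the mutants, against 3.53 and 3.85 in the wild types, and the groups met at 3.85. Its difference of 0.85 (SE 0.56, 95% interval -0.85 to 2.55) was 0.16 without mutant replicate 2 and 1.54 without mutant replicate 1. It was 0.48 with the pseudocount. The third, dim on all 4 arrays, had 2.08 and 2.96 in the mutants, against 2.08 and 2.10 in the wild types.

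The netrin receptors had no shared direction. Dcc, which mediates attraction to netrin, had 3.07 and 2.49 in the mutants, against 2.46 and 2.21 in the wild types. All 4 Dcc values were under the dim level of 3.21, so its difference of 0.44 was not tested. Unc5a, a receptor for repulsion, had 2.75 and 3.27 in the mutants, against 3.22 and 3.75 in the wild types. The groups overlapped, though each mutant array was lower than the wild-type array of the same number, and Unc5a was the 1 gene with a lower mutant level by its brightest probe set, by -0.48 (SE 0.29, 95% interval -1.37 to 0.42; limma, adjusted p = 1). Its mutant mean of 3.01 was under the dim level, and the difference was -0.18 with the pseudocount. Leaving out 1 array gave -0.74 to -0.22, larger in size when wild-type replicate 1 was dropped and smaller when wild-type replicate 2 was dropped.

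Unc5b, the other repulsion receptor, was measured by a pair of probe sets that disagreed in sign. The brighter had 5.69 and 5.61 in the mutants, against 5.31 and 5.69 in the wild types, a difference of 0.15 (SE 0.17). The dimmer had 4.14 and 5.31 in the mutants, against 4.23 and 5.48 in the wild types, a difference of -0.13 (SE 0.67). In the dimmer probe set the replicates of a genotype lay further apart, by 1.17 in the mutants and 1.25 in the wild types, than the genotypes did. Its 95% interval of -2.18 to 1.92 spans both directions.

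**Figure D2:**
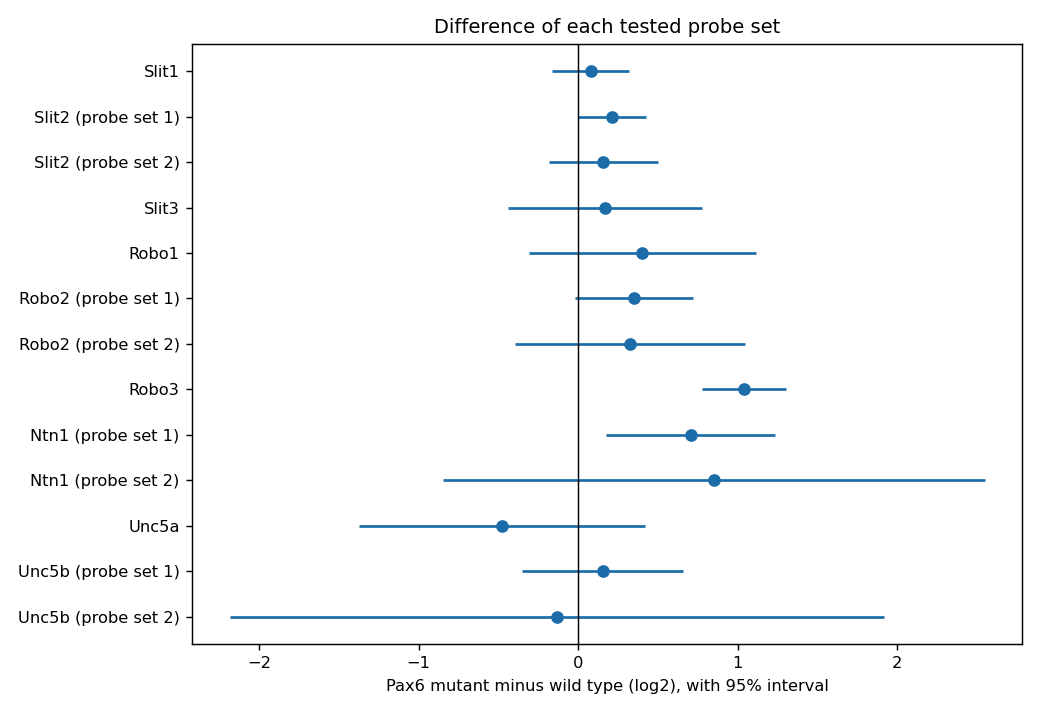
Log2 difference, Pax6 mutant minus wild type, of the 13 tested probe sets in order of role, with points at the estimate and lines over the 95% interval of limma (2 arrays per genotype). Robo3 (0.77 to 1.30) and the brightest Ntn1 probe set (0.17 to 1.23) have intervals that do not include 0, before any adjustment for the number of probe sets. Robo3 passed the dim level only through its mutant arrays, so its interval sets these against dim wild-type values.

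Separation of the groups was counted without a test. In 4 of the 13 tested probe sets (Robo3 and the brightest ones of Ntn1, Robo2 and Slit2) both mutant arrays lay above both wild-type arrays. The reverse held in 0 of 13. Over all tested probe sets these shares were 11.4% and 11.8%, so about 23.2% separate in one direction or the other. Robo3 is among the 13 only through its mutant arrays, so the count of 4 is in part set by the filter. Leaving out an array turned the sign of 3 of the 13 probe sets, those of Slit3 and both of Unc5b, and kept it in the other 10, as the plot with arrays left out shows.

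**Figure D3:**
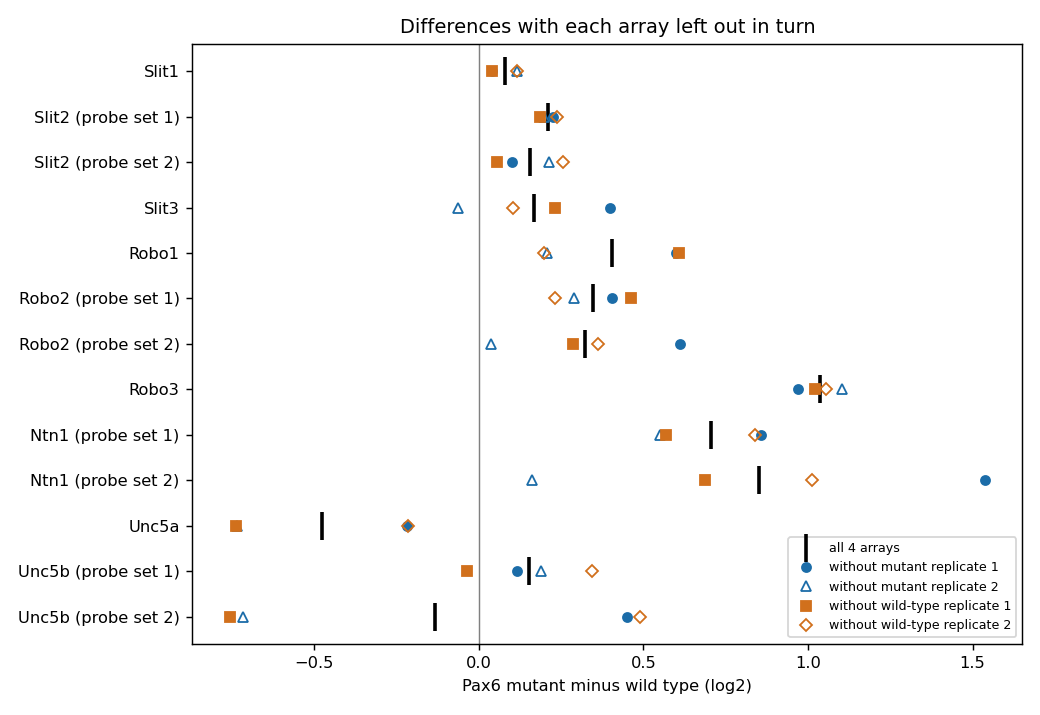
Log2 difference, Pax6 mutant minus wild type, of the 13 tested probe sets with all 4 arrays (black bars) and with each array left out in turn (symbols, blue for mutant and orange for wild-type arrays). Robo3 stays between 0.97 and 1.10, while the second Ntn1 probe set runs from 0.16 to 1.54 and the second Unc5b probe set lies on both sides of 0.

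A list of 69 partners was set beside these genes. It includes further netrins, netrin receptors and Robo relatives, the Slit-Robo GTPase-activating proteins, adaptors and kinases that act below the receptors, and the heparan sulphate enzymes and proteoglycans on which Slit binding depends. Of these, 59 had a single-symbol probe set and 55 were tested, each by its brightest probe set. The 10 without one include Robo4, Unc5d, Ntn3, Ntn4, Ntng2, Srgap1 and Srgap3, so no further Robo was measured. Of the further netrins Ntn5 was dim and only Ntng1 was tested, at 3.35 and 3.42 in the mutants, against 3.35 and 3.32 in the wild types. limma called 0 of 55, with 1 at an unadjusted p under 0.05, beside 3.65% of all tested probe sets. Of the 55, 30 were higher in the mutants, 24 lower and 1 equal, where 48.8% of all tested probe sets were higher. The median of the 55 was 0.0056, against 0 over all tested probe sets. Differences ran from -0.34 to 0.33, so no tested partner reached the size seen for Robo3 or Ntn1. The groups did not overlap for 9 higher partners and 1 lower one, 18.2% of the 55, beside 23.2% of all tested probe sets (11.4% higher and 11.8% lower).

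The naming rule gave 3 partners, all higher in the mutants. Trio, a signalling protein that acts below Dcc, had 11.02 and 11.16 in the mutants, against 10.67 and 10.85 in the wild types, a difference of 0.33 (SE 0.11). Wasl, an actin nucleation factor, had 9.99 and 9.90 in the mutants, against 9.75 and 9.54 in the wild types, a difference of 0.30 (SE 0.11). Sos1, which in Drosophila acts below Robo, had 9.32 and 9.33 in the mutants, against 9.07 and 9.13 in the wild types, a difference of 0.22 (SE 0.07; limma, unadjusted p = 0.0452). All 3 had an adjusted p of 1 in limma.

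The other netrin receptors of the list were chosen for display by role after their values were seen. Neo1 (neogenin), the nearest relative of Dcc, had 9.39 and 9.62 in the mutants, against 9.49 and 9.64 in the wild types. These values overlapped, with a difference of -0.06. Unc5c stood at 3.50 in both mutants, against 3.50 and 3.56 in the wild types. Dscam was dim on every array, at 2.07 in both mutants against 2.12 and 2.07 in the wild types. Nell2, which encodes a ligand of Robo3, had 6.96 and 7.34 in the mutants, against 7.14 and 7.36 in the wild types, a difference of -0.10.

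Markers of tissues that make or answer these cues were read on the same arrays, where 48.8% of all tested probe sets were higher in the mutants. The telencephalic markers Lhx2, Emx2 and Otx2 were bright in both genotypes, and Emx1 was dim. Of 9 ventral midline and hypothalamic markers 7 were on the array and 4 were tested, 3 of them higher in the mutants, with a median of 0.21. The signal of the 7 summed on the linear scale was 1932 and 2480 in the mutants, against 1505 and 1791 in the wild types. Nkx2-1, a transcription factor of the ventral forebrain, was at 10.37 ± 0.18 in the mutants and 9.75 ± 0.07 in the wild types (SD, n = 2 each), a difference of 0.63. As the brightest of the list it weighs most in these sums. Nkx2-2 and Shh, the next brightest, overlapped between the genotypes. Foxa2, a floor plate factor, ran the other way, at 4.35 ± 0.34 in the mutants and 5.45 ± 0.94 in the wild types. Foxa1 was at the lowest value on every array. Of the optic stalk and eye markers 3 of 4 tested were higher, with sums of 1471 and 1644 in the mutants, against 1014 and 1250 in the wild types. These sums were higher in the mutants, as Ntn1 was, and their part in the Ntn1 difference was not tested.

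Robo3 is known from commissural and hindbrain neurons, so genes of early neurons and of the hindbrain were read beside it. Of 11 tested early neuron genes 6 were higher and 5 lower in the mutants, with a median of 0.0091 and summed signals of 2072 and 2081 in the mutants, against 2095 and 2459 in the wild types. Single genes of this list went both ways. Dcx, a microtubule-binding protein of young neurons, was at 4.98 ± 0.02 in the mutants and 4.47 ± 0.19 in the wild types (SD, n = 2 each). Stmn2 was at 8.45 ± 0.0058 in the mutants and 8.09 ± 0.47 in the wild types. The neurofilament gene Nefm was at 9.66 ± 0.14 in the mutants and 10.07 ± 0.10 in the wild types, and as the brightest of the list it weighs most in the sums. These 3 of the 11 were chosen after their values were seen, as those whose groups did not overlap. Over all tested probe sets 23.2% did not overlap (11.4% higher and 11.8% lower), and 48.8% had the higher mean in the mutants. The part of neurons in the Robo3 difference was not tested. Of 8 diencephalic, midbrain and hindbrain genes on the array 6 were dim, including Hoxb2, Egr2, Gbx2 and En2, and En2 was at the lowest value on all 4 arrays. The 2 tested, Irx3 and Tcf7l2, were both lower in the mutants.

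Markers of cells from outside the neural tube were read in the same way, beside the 48.8% of all tested probe sets that were higher in the mutants. Erythroid genes were higher in 8 of 8 tested cases, with a median of 0.52 and sums of 77526 and 78075 in the mutants, against 66997 and 67798 in the wild types. All 9 tested endothelial genes were higher, with a median of 0.25 and sums of 3191 and 3805 in the mutants, against 2907 and 2922 in the wild types. Mesenchyme and neural crest genes were higher in 3 and lower in 5 of 8, with sums of 6342 and 7767 in the mutants, against 7826 and 7997 in the wild types. Surface ectoderm genes were higher in 3, lower in 3 and equal in 1 of 7, with sums of 384 and 386 in the mutants, against 533 and 448 in the wild types. As the brightest of their lists, Hbe1 and Hbz weigh most in the erythroid sums and Col3a1 in the mesenchyme sums. limma called 0 members of any of these marker lists. The part of blood and vessel RNA in the guidance differences was not tested.

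**Figure D4:**
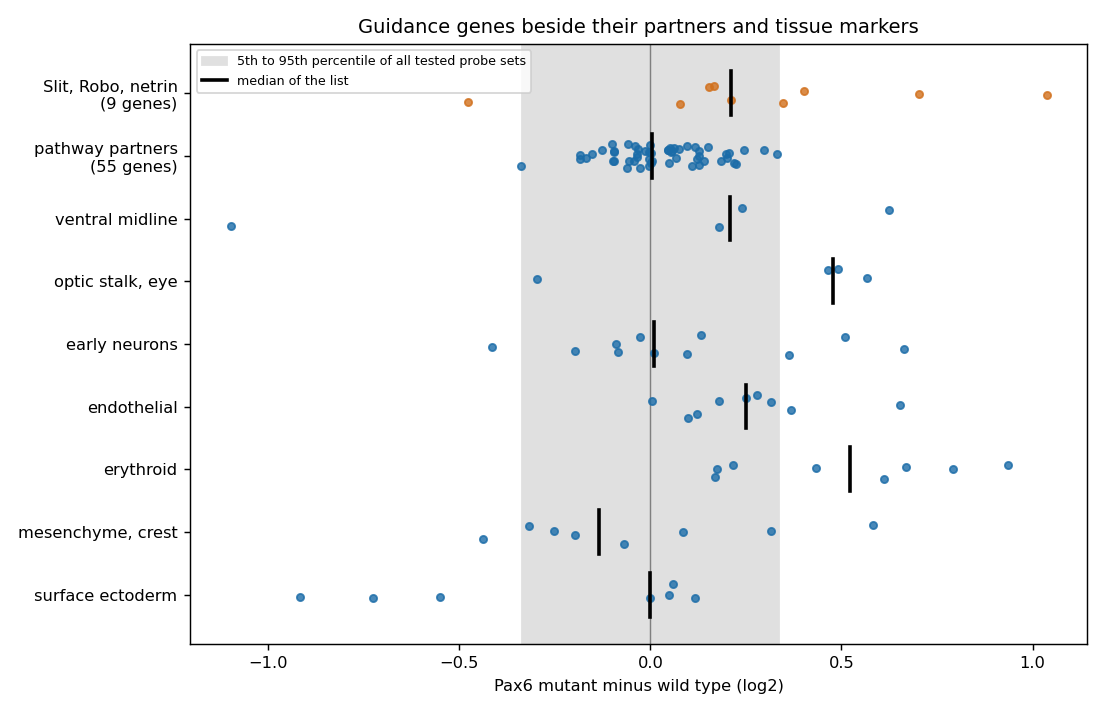
Log2 difference, Pax6 mutant minus wild type, of single genes (points, brightest probe set, tested genes only) in the 9 tested guidance genes, the 55 tested partners and 7 marker lists, with the list median as a bar. The grey band holds the differences from -0.34 to 0.34 that span the 5th to 95th percentile of all tested probe sets. Robo3, Ntn1, Robo1 and Robo2 lie above the band, Unc5a lies below it, and all but 1 of the partners lie within it.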

How the data were processed

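The authors deposited log2 expression values, 1 for each probe set on each array. Per the submitters' processing notes they come from GCRMA, whose version is not given in the sources used here. That method predicts and removes a background from the probe sequences, brings the arrays to a shared scale and combines a set's probes into 1 value. That the scale is log2 was read from the values. Biotin-labelled cRNA came from 10 µg of total RNA, per the labels.

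Of 31099 probe sets, 57 controls were left out. The platform annotation gave 1 symbol to 20826, several to 436 and none to 9780, and all 17 member probe sets carried the same symbol in RefSeq. Probe sets with a mean under 3.21 were left out, and 18625 were tested with limma 3.58.1 (R 4.3.3, lmFit and eBayes) with genotype as the only term, 2 residual degrees of freedom and Benjamini-Hochberg adjustment over all of them. With 2 arrays against 2, the smallest two-sided p of an exact permutation test is 0.333, and no such test was made. The procedure was tested on simulated data. Where several probe sets carry a gene, the one with the highest mean stands for it in list counts and sums. The sums take in the dim genes of a list too. The naming rule took every member, and from the partner list up to 4 higher and 4 lower genes at an unadjusted p under 0.05 or, where fewer than 3 met this, the 3 largest differences without overlap. Alternatives changed the filter, normalization, pseudocount, replicate block, zero-variance probe sets, eBayes trend and the arrays used. The members, lists and tests were chosen with earlier results of these data known.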

Additional observations from a re-analysis of the deposited data

How the results depend on the processing

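The number of guidance probe sets called stayed at 0 under all 12 alternatives, and so did the number of partner probe sets (0 of 97 tested). Over all probe sets limma called 0, with 680 under 0.05 before adjustment. A filter at the 60th percentile called 1. Quantile normalization called 2, as did median centring and the fit that dropped zero-variance probe sets, and 0 of these were guidance or partner probe sets; the cause was not tested. The filter at the 60th percentile left out Robo3 and kept 4 guidance probe sets. The adjusted p of Robo3 ran from 0.467 to 1 over its alternatives and its difference from 0.44 (pseudocount) to 1.10. With 1 array left out, the difference of Slit3 ran from -0.064 to 0.40, that of the brighter Unc5b probe set from -0.037 to 0.34 and that of the dimmer one from -0.76 to 0.49. Averaging all probe sets of a gene gave 0.66 for Ntn1, 0.19 for Robo2, 0.12 for Slit2 and 0.010 for Unc5b. The labels give both genotypes replicate numbers 1 and 2 without saying what they share. Replicate 1 minus replicate 2 correlated between the genotypes at r = 0.43 over 18625 probe sets. With the replicate block 0 probe sets were called and 1194 of 18625 had an unadjusted p under 0.05. Of the guidance probe sets 0 were called (lowest adjusted p = 0.736, limma) and of the partners 0. Before adjustment 3 of 13 guidance probe sets were under 0.05: the brightest of Ntn1, Robo3 and, on the lower side, Unc5a (unadjusted p = 0.0105, limma). Robo3 and Unc5a are among the 13 only through the genotype where they were high, so this count is in part set by the filter. With 2 arrays per genotype, 0 of 18625 differences could be told from 0 after adjustment in the main fit. That includes the 96 of at least 2-fold, so differences as small as those of the Slits could not be told from 0 either. The unadjusted p of the brightest Slit2 probe set ran from 0.00898 without a filter to 0.184 with median centring (limma). Signal near the dim level limits Robo3, Slit1, Dcc and Unc5a, and low signal also limits Slit3 and the dimmer probe sets of Robo2 and Ntn1. Of the 17 member probe sets 7 held the same value on at least 2 arrays.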
